A study of Mus musculus with 16 samples.

Results

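The interferon regulatory factor (IRF) genes Irf1, Irf2, Irf3, Irf4, Irf5, Irf7 and Irf9 were followed across 16 mouse libraries. They were chosen by symbol, by a rule that uses no measured value, with earlier results of these data known, and are 7 of the 32697 genes in the count table. The family member Irf8 was left out of the choice. YUMM1.7, a melanoma line of mice, was engrafted, and RNA was taken once tumours had reached 200 to 350 mm3. Per the series text the cells are sorted type 1 conventional dendritic cells (cDC1s), which take up tumour antigen and present it to CD8 T cells. The genotype labels give 4 groups of 4 libraries. The Ikbkb-deleted group (IKKbdeltaXCR1) lacks Ikbkb, the gene of the kinase IKK-beta that activates NF-kB, in cells marked by the chemokine receptor XCR1, and its controls (IKKbFF) carry the floxed allele. The Irf1-deleted group (IRF1deltaXCR1) and its controls (IRF1FF) have the same layout for Irf1. All 16 libraries therefore come from mice with a floxed allele, and the labels name neither the Cre strain nor the exons removed. The growth notes name female mice and only the Ikbkb strains, so each Irf1 group rests on its genotype label. The labels give no age and do not say whether the 4 libraries of a group came from separate mice, and p-values therefore reflect library-to-library spread, which may be technical.

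IRF proteins bind a DNA element with repeated GAAA motifs, found in the interferon-stimulated response element (ISRE). IRF1 is induced by interferon-gamma and by NF-kB, and IRF2 competes with it at the same sites. IRF3 and IRF7 are activated by phosphorylation downstream of nucleic acid sensors and switch on type I interferon genes, and IRF9 is part of the complex that answers those interferons. IRF5 serves Toll-like receptor signalling in myeloid cells, and IRF4 acts in lymphocytes, macrophages and type 2 dendritic cells.

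Libraries held 16478671 to 27433818 counts. The cDC1 genes Xcr1 and Clec9a were present in every library, at 12.1 to 318.2 CPM (counts per 1000000 counts, TMM-scaled) and 0.603 to 67.6 CPM. RNA of other cells was present too. Summed over fixed marker lists, fibroblast and endothelium genes measured 11578 to 31393 CPM in the Irf1 set and 6357 to 12132 CPM in the Ikbkb set. T and NK cell genes measured 58.0 to 740.4 CPM in the Irf1 set and 241 to 1834 CPM in the Ikbkb set. Genes of cDC1s measured 625 to 2797 CPM in the Irf1 set and 736 to 6216 CPM in the Ikbkb set. Ppt1 and Naaa weigh most in that sum, with means of 660 and 509 CPM, against 86.0 for Xcr1 and 15.5 for Clec9a. In the fibroblast and endothelium sum, Col3a1 averaged 4692 CPM and Pecam1 20.9 CPM. Macrophage and monocyte genes measured 840 to 9443 CPM in the Irf1 set and 957 to 5833 CPM in the Ikbkb set. In every library the fibroblast and endothelium sum exceeded the cDC1 sum. These sums rest on lists of unlike genes and do not give shares of cells. The largest sums of cDC1 genes were 6216 CPM in Ikbkb-deleted replicate 1 and 5694 CPM in Ikbkb control replicate 3. That control library also had the largest T and NK cell sum, and in TMM-scaled CPM it was the highest of the 16 libraries for all 7 IRF genes. Its TMM factor was the lowest, 0.819, which raises its CPM, and before scaling it was not the highest for Irf2 and Irf3. Irf3 had 1228 of 23271467 counts there and 1597 of 24303369 in Irf1 control replicate 3. Irf2 had 815 counts there and 785 of 18726833 in Irf1 control replicate 2. The main results that rest on Ikbkb control replicate 3 are given with and without it. In bulk RNA, fewer cells of a type and less RNA per cell cannot be told apart.

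The promoters of Irf1 and Irf2 are shown because they were the member promoters in which any of 3 searched elements was found. The promoters are RefSeq's on build GRCm38.p6, from 250 bases before to 50 bases after the start of transcription, and positions count from the start, with -1 just before it. All 7 genes had a promoter entry. Each sequence reads 5′ to 3′ on the plus strand, at chr11:53769764-53770063 for Irf1 and chr8:46739495-46739794 for Irf2, and capitals mark the matches.
Irf1: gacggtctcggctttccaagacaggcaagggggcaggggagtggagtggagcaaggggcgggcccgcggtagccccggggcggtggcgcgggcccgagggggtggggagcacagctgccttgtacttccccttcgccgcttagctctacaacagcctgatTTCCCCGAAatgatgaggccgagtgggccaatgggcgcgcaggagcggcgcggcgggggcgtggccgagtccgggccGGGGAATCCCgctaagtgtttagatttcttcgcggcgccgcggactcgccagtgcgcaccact
Irf2: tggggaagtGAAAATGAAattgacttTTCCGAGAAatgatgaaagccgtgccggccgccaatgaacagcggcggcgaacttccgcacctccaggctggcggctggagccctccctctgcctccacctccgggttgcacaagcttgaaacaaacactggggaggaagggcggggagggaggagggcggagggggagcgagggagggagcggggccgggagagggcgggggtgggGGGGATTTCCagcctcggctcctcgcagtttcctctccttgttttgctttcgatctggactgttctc
The Irf1 promoter held the STAT site TTCNNNGAA as TTCCCCGAA at -90 to -82 and the NF-kB consensus as GGGGAATCCC at -13 to -4. The Irf2 promoter held the ISRE core GAAANNGAA as GAAAATGAA at -241 to -233, the STAT site as TTCCGAGAA at -224 to -216 and the NF-kB consensus as GGGGATTTCC at -17 to -8. No 2 of these matches overlapped. Searched on both strands, the ISRE core was in 8.56% of 32851 mouse promoters of this length, the STAT site in 8.3% and the NF-kB consensus in 8.46%. STAT site and NF-kB consensus stood together in 0.639% of promoters, and all 3 elements in 0.091%. The second Irf1 promoter and the entries of Irf3, Irf4, Irf5, Irf7 and Irf9 held no match in these windows. A match is a description of the letters and no evidence of binding.

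Irf5, Irf7 and Irf1 were the most abundant members per length, and Irf4 the least. Levels between genes are given as CPM per kilobase of exons, as mean ± SD over 16 libraries. Irf5 stood at 77.3 ± 65.0, Irf7 at 73.7 ± 58.0 and Irf1 at 70.6 ± 46.9, gaps far smaller than their spread. With the longest transcript as the length the order became Irf1 (131), Irf5 (100.2) and Irf7 (85.8). Irf9 (19.3 ± 9.89) and Irf3 (16.4 ± 2.16) did not differ beyond their spread either, and changed places with the other length, at 26.8 for Irf9 and 27.8 for Irf3. Irf2 (3.40 ± 1.15) and Irf4 (0.994 ± 2.08) came last, with ranges that overlapped.

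The members differed most in how much they varied. Irf3 was among the steadiest genes measured, with an SD of log2 CPM of 0.23 over 16 libraries, at percentile 1.98 of the 16040 genes tested, and its highest library was 1.95-fold its lowest. Irf4 had an SD of 2.68, at percentile 99.6. The highest library was 14.3-fold the lowest for Irf7, 9.12-fold for Irf5, 9.04-fold for Irf1, 5.65-fold for Irf9 and 3.12-fold for Irf2. SDs of low genes such as Irf4 include more counting error.

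**Figure D1:**
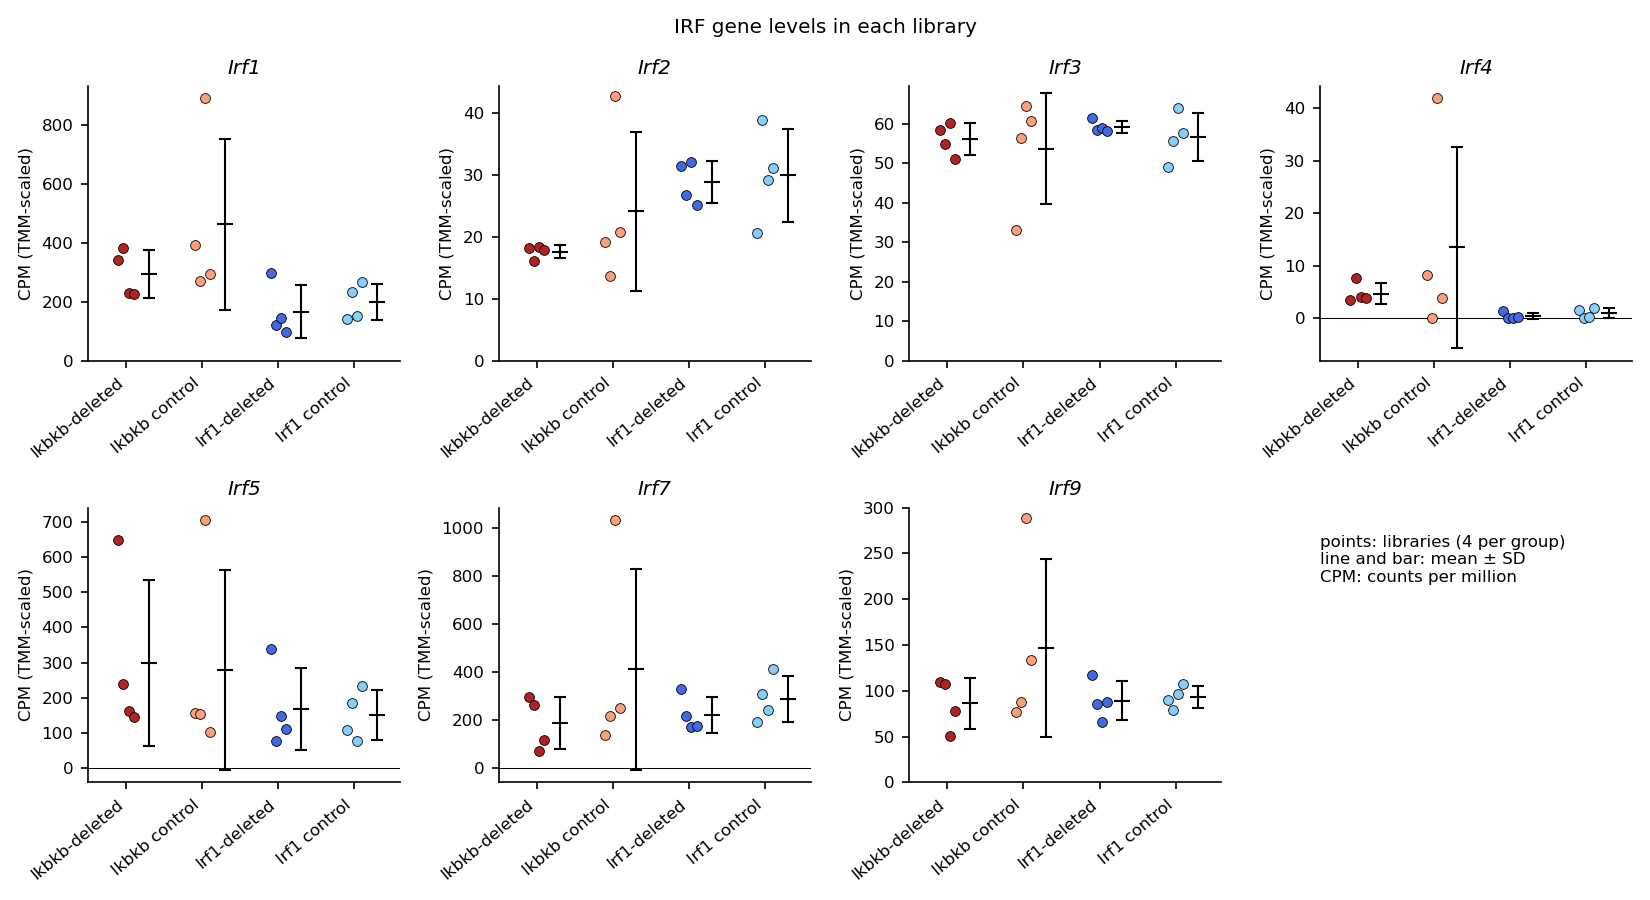
TMM-scaled CPM of each IRF gene (linear vertical axes that include 0, each with its own scale) in the 4 groups, with 1 point per library and the mean ± SD of 4 libraries beside it. Ikbkb control replicate 3 is the top point of every panel, at 892 CPM for Irf1 and 1034 CPM for Irf7, while Irf3 stays between 33.2 and 64.5 CPM.

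The comparison of each deletion with its own controls asked whether the IRF genes depend on IKK-beta or on IRF1 in these cells, as the series title, which names an NF-kB and IRF1 axis, frames it. None of the 7 IRF genes passed the test in either deletion. The test was edgeR's quasi-likelihood test with Benjamini-Hochberg adjustment over 16040 genes, with a call at an adjusted p under 0.05. The background was 0% for Ikbkb deletion and 0% for Irf1 deletion, since no gene at all was called. Without adjustment, 769 genes had p under 0.05 in Ikbkb deletion and 419 in Irf1 deletion. DESeq2 called 38 and 6 genes in the same order, none of them an IRF member. The difference between the deletions had a background of 0% as well, with 455 genes at an unadjusted p under 0.05 and 12 genes called by DESeq2. limma voom called 0 genes in all 3. No member had an unadjusted p under 0.05 in these tests. No member had libraries without overlap between deleted and control groups, which 1.7% of genes had in Ikbkb deletion and 2.89% in Irf1 deletion.

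Irf1 (ENSMUSG00000018899, GENCODE M21 on GRCm38, chromosome 11, 53770014 to 53778374, plus strand) is the target of one deletion, so its level also checks the labels. It measured 299, 123, 145 and 98.6 CPM in the libraries labelled Irf1-deleted, against 141, 234, 152 and 268 CPM in the Irf1 controls. Replicate 1 under the Irf1-deleted label lay above all 4 Irf1 controls, and replicates 2 and 4 lay below all of them. This gave a log2 fold change of -0.26 with an SE of 0.40, equal to a fold of 0.836 (95% interval 0.462 to 1.51) and an edgeR adjusted p of 1. Leaving that replicate 1 out gave -0.70, and leaving out replicate 4 of the same label gave -0.07. Reads from Irf1 RNA that keeps the undeleted exons, and from cells without XCR1, would count for the gene, so the whole-gene count does not test the removed exons.

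In Ikbkb deletion Irf1 measured 343, 384, 228 and 225 CPM in the Ikbkb-deleted libraries, against 392, 271, 892 and 296 CPM in the Ikbkb controls. Replicates 3 and 4 of the deleted group lay below every control and replicates 1 and 2 among them. Its log2 fold change was -0.65 (SE 0.40; edgeR adjusted p = 1), and -0.12 when Ikbkb control replicate 3 was left out. The targeted gene Ikbkb itself measured 46.3, 28.5, 37.1 and 37.8 CPM in the Ikbkb-deleted libraries and 45.1, 44.5, 120.8 and 48.6 CPM in the Ikbkb controls, so only replicate 1 reached the control range. The T and NK cell markers had a log2 fold change below 0 for 14 of 14 genes in Ikbkb deletion (median -0.97) and for 13 of 14 in Irf1 deletion (median -1.10), with none called. Their sum ran from 241 to 554 CPM in the Ikbkb-deleted libraries, against 294 to 1834 CPM in the Ikbkb controls, and from 89.2 to 234 CPM in the Irf1-deleted libraries, against 58.0 to 740.4 CPM in the Irf1 controls. Cd3e and Trac, which encode parts of the T cell receptor complex, were at 0 in no library. A score here is the mean log2 CPM of the markers of a list, not their summed CPM. With the T and NK cell score as a covariate the Irf1 value was -0.22 in Ikbkb deletion and -0.10 in Irf1 deletion. In Ikbkb deletion it was -0.59 with a cDC1 score (unadjusted p = 0.038, adjusted 0.838 by edgeR), -0.45 with a macrophage score and -0.71 with a fibroblast score. In Irf1 deletion these 3 scores gave -0.36, -0.21 and -0.30 in the same order.

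Irf2 (ENSMUSG00000031627, chromosome 8, 46739732 to 46847458, plus strand), the antagonist of IRF1, measured 18.2, 16.1, 18.4 and 17.9 CPM in the Ikbkb-deleted libraries, against 19.2, 13.7, 42.8 and 20.8 CPM in the Ikbkb controls. The deleted libraries were nearly level with each other, inside the range of the controls. Its log2 fold change was -0.45 (SE 0.30), and -0.026 without Ikbkb control replicate 3. Within the Irf1 set Irf2 ran from 25.2 to 32.1 CPM in the Irf1-deleted libraries and from 20.6 to 39.0 CPM in the Irf1 controls, with a log2 fold change of -0.05 (SE 0.29).

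Irf3 (ENSMUSG00000003184, chromosome 7, 44997648 to 45002848, plus strand), which is held inactive in the cytoplasm until a sensor fires, varied little. It measured 58.5, 55.0, 60.3 and 51.2 CPM in the Ikbkb-deleted libraries, against 33.2, 56.5, 64.5 and 60.9 CPM in the Ikbkb controls. Across the Irf1 set it ran from 58.3 to 61.6 CPM in the deleted libraries and from 49.2 to 64.2 CPM in the controls. The fold changes were 1.05 (95% interval 0.798 to 1.37) in Ikbkb deletion and 1.05 (0.797 to 1.37) in Irf1 deletion, the narrowest intervals of the 7 genes.

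Irf7 (ENSMUSG00000025498, chromosome 7, 141262706 to 141266481, minus strand), the interferon-inducible amplifier of type I interferon, measured 296, 264, 72.3 and 119 CPM in the Ikbkb-deleted libraries. In the Ikbkb controls it measured 140.0, 219, 1034 and 253 CPM. Replicates 3 and 4 of the deleted group lay below every control, and replicates 1 and 2 above every control but replicate 3. That is a log2 fold change of -1.13 (SE 0.56), with an unadjusted p of 0.0605 from edgeR, which became 1 after adjustment. Without Ikbkb control replicate 3 it was -0.13. In the Irf1 set Irf7 measured 331, 217, 172 and 174.5 CPM in the Irf1-deleted libraries, against 194, 310, 241 and 415 CPM in the Irf1 controls. Deleted replicates 3 and 4 lay below every control, while deleted replicate 1 lay above every control but replicate 4. The log2 fold change was -0.37 (SE 0.55). Markers of plasmacytoid dendritic cells, which are rich in Irf7, had values below 0 for 6 of 8 genes in both deletions. The medians were -0.48 in Ikbkb deletion and -0.21 in Irf1 deletion, with none called, and the part of these cells was not tested. Bst2 and Tcf4 averaged 247 and 243 CPM over all libraries, and the other markers from 1.67 CPM (Cox6a2) to 18.0 CPM (Runx2). Bst2 is also on the list of IRF9 and IRF7 targets used below, so the lists share a gene.

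Irf9 (ENSMUSG00000002325, chromosome 14, 55603571 to 55610030, plus strand), the DNA-binding part of the complex that answers type I interferon, measured 109, 108, 51.0 and 77.5 CPM in the Ikbkb-deleted libraries. In the Ikbkb controls it measured 76.4, 87.8, 288 and 134 CPM, and the groups overlapped. Here the log2 fold change was -0.76 (SE 0.36), with the smallest unadjusted p of the 7 genes in edgeR, 0.0501, and an adjusted p of 1. It was -0.21 without Ikbkb control replicate 3. In the Irf1 set Irf9 ran from 65.3 to 117 CPM in the deleted libraries and from 79.0 to 108 CPM in the controls, with a log2 fold change of -0.07 (SE 0.36).

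Irf5 (ENSMUSG00000029771, chromosome 6, 29526625 to 29541871, plus strand), a mediator of inflammatory cytokine induction, measured 647, 240.3, 162 and 145 CPM in the Ikbkb-deleted libraries, while the Ikbkb controls had 157, 154, 705 and 104 CPM. Each group held 1 library far above the rest, and these were the 2 libraries with the most cDC1 marker RNA. The fitted log2 fold change was 0.09 (SE 0.64), 1.1 without Ikbkb control replicate 3 and -0.63 without Ikbkb-deleted replicate 1. In the Irf1 set Irf5 measured 339, 78.8, 149 and 110.2 CPM in the deleted libraries and 107, 185, 77.3 and 234 CPM in the controls, with a log2 fold change of 0.16 (SE 0.64).

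Irf4 (ENSMUSG00000021356, chromosome 13, 30749226 to 30766976, plus strand) was barely detected outside the Ikbkb set. In counts it had 64, 152, 75 and 75 in the Ikbkb-deleted libraries and 187, 0, 797 and 60 in the Ikbkb controls. It had 29, 2, 0 and 7 in the Irf1-deleted libraries and 35, 0, 6 and 40 in the Irf1 controls. A count of 0 allows up to 3 counts, or 0.152 CPM in Ikbkb control replicate 2, and this limit covers counting error only. At least 10 counts were present in 3 of 8 libraries of the Irf1 set and in 7 of 8 of the Ikbkb set. The gene passed the filter on low counts only through the Ikbkb set, and did not pass it in the Irf1 set alone. The log2 fold changes were -1.52 (SE 1.43) in Ikbkb deletion, 0.22 without Ikbkb control replicate 3, and -1.11 (SE 1.48) in Irf1 deletion. That last value was -2.86 with replicate 1 of the Irf1-deleted label left out and -0.48 without Irf1 control replicate 4. B cell markers, whose cells also express Irf4, summed to 72.5 to 172 CPM in the Ikbkb-deleted libraries and 137 to 985 CPM in their controls. For the Irf1 set they summed to 15.7 to 144 CPM in the deleted libraries and 18.7 to 108 CPM in the controls, and their part in the Irf4 values was not tested.

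Over the 7 members, 5 had a log2 fold change below 0 in Ikbkb deletion, with a median of -0.65 against -0.02 over all genes tested. Without Ikbkb control replicate 3, 4 were below 0 and the median was -0.026. In Irf1 deletion 5 were below 0, with a median of -0.07 against -0.02 over all genes. Of all genes tested, 52.2% were below 0 in Ikbkb deletion and 51.7% in Irf1 deletion. The difference between the deletions, tested directly, gave log2 values from -0.76 for Irf7 to 0.0014 for Irf3, all with an edgeR adjusted p of 0.99997. For Irf1 it was -0.39, with a 95% interval of -1.60 to 0.82. The direction of the difference turned with Ikbkb control replicate 3. With that library 6 of 7 members were below 0 (median -0.40), and without it 6 of 7 were above 0 (median 0.13), Irf1 at 0.13 and Irf7 at 0.23 among them.

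**Figure D2:**
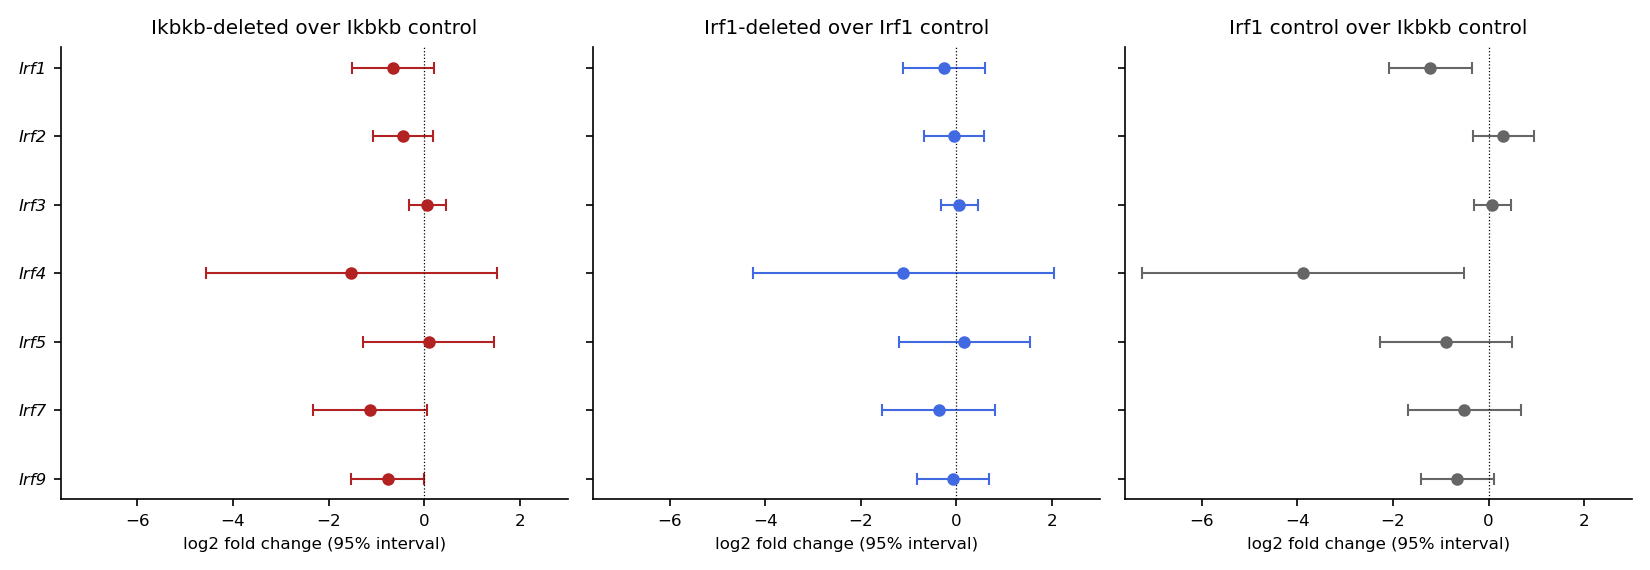
Log2 fold change of each IRF gene with its 95% interval from the edgeR fit, in panels for Ikbkb-deleted over Ikbkb control, Irf1-deleted over Irf1 control, and Irf1 control over Ikbkb control. The intervals of both deletions include 0 for all 7 genes, and in the panel of the controls those of Irf1 (-1.22) and Irf4 (-3.88) lie below 0 before adjustment.

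The controls of the 2 sets differed more than the deletions did. Between Irf1 controls and Ikbkb controls edgeR called 12.6% of genes, 1081 higher and 937 lower in the Irf1 controls, and 17.5% of genes had libraries without overlap. None of the 7 members was called, and Irf1 alone did not overlap. Its lowest Ikbkb control (271 CPM) stood just above its highest Irf1 control (268 CPM). Between them the log2 fold change was -1.22 (SE 0.41), a fold of 0.430 (95% interval 0.236 to 0.783), and the edgeR adjusted p was 0.062. Other settings put Irf1 past the threshold, with an adjusted p of 0.017 by DESeq2 and 0.0312 by limma voom. By edgeR it was 0.043 with a filter of 5 CPM and 0.0288 with a cDC1 marker score as a covariate. DESeq2 and limma voom also called more of all genes than the 12.6% of the main fit. With a T and NK cell score as a covariate the value was -0.41 (edgeR adjusted p = 0.434), and without Ikbkb control replicate 3 it was -0.68 (adjusted p = 0.218). With a fibroblast and endothelium score it was -0.59, and no gene was called. Set, floxed allele and the amounts of fibroblast, T and NK cell and B cell RNA cannot be told apart in this comparison.

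The other members had log2 fold changes of -3.88 for Irf4 (SE 1.58; edgeR adjusted p = 0.119, and 0.0294 by DESeq2), -0.89 for Irf5, -0.65 for Irf9, -0.51 for Irf7, 0.08 for Irf3 and 0.31 for Irf2. Irf4 passed the filter on low counts only through the Ikbkb set, where it is higher, so its value here is a description only. Counting Irf1, 5 of 7 members were below 0. Leaving out Ikbkb control replicate 3 put 4 of 7 above 0, with Irf4 at -2.13 (edgeR adjusted p = 0.393), Irf5 at 0.13, Irf9 at -0.095 and Irf7 at 0.51. Under the same setting the value of Irf2 was 0.74 (edgeR adjusted p = 0.0544), the smallest adjusted p of the 7 members there. T and NK cell markers were below 0 for 14 of 14 genes in this comparison (median -1.31, none called), cDC1 markers for 8 of 10 (median -0.82, none called), and fibroblast and endothelium markers were above 0 for 12 of 12 (median 1.42, 8 called). B cell markers were below 0 for 7 of 7 tested genes (median -3.65, 1 called), beside the value of Irf4, and their part in it was not tested. Neutrophil markers were above 0 for 5 of 6 (1 called), and 2 plasmacytoid dendritic cell markers were called.

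Of the 99 genes around the IRFs in the lists described below, 7 passed the test between the controls, or 7.07% against 12.6% of all genes tested, and 6 of them are described here, chosen after their values were seen. Higher in the Irf1 controls were Arg1, an arginine-degrading enzyme of macrophages (log2 fold change 3.52), Ddx58, which encodes the RNA sensor RIG-I (0.91), and Jak1, a kinase of interferon receptors (0.83). Lower in the Irf1 controls were Il1b, the inflammatory cytokine interleukin 1 beta (-2.89), Cd274, which encodes PD-L1 (-2.48), and Ptpn2, a phosphatase that dampens JAK-STAT signalling (-0.80). The edgeR adjusted p of these 6 was between 0.0175 for Ptpn2 and 0.0442 for Cd274. Cd274 averaged 23.0 ± 16.1 CPM in the Irf1 controls, against 128 ± 153 CPM in the Ikbkb controls (SD, n = 4 each). None of these 6 calls held in all 8 fits that left out 1 control library. Ptpn2 was called in 7 of them, Arg1 in 6, Il1b in 4, Ddx58 in 3, Jak1 in 2 and Cd274 in 1, and without Ikbkb control replicate 3 Cd274 was at -1.17 (edgeR adjusted p = 0.2195).

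The ratio of Irf1 to Irf2, activator over antagonist, separated the 2 sets completely. It is a ratio of counts within a library, so it does not depend on scaling between libraries, and it was taken as a description with no test. Irf1 counts were 9.50, 4.58, 4.51 and 3.91 times those of Irf2 in the Irf1-deleted libraries and 6.85, 6.01, 5.22 and 8.62 times in the Irf1 controls. They were 18.9, 23.9, 12.4 and 12.6 times in the Ikbkb-deleted libraries and 20.4, 19.7, 20.8 and 14.2 times in the Ikbkb controls. All 8 libraries of the Irf1 set lay below all 8 of the Ikbkb set, while deleted and control libraries overlapped within each set. How many other gene pairs have a ratio that separates the sets was not measured. Between the controls alone, 17.5% of genes had libraries without overlap. The separation is therefore not shown to be particular to this pair. Ikbkb control replicate 3, the highest library for every member in TMM-scaled CPM, had a ratio of 20.8, inside the range of the other libraries of the set. The log2 ratio averaged 2.40 ± 0.58 in the Irf1-deleted libraries and 2.71 ± 0.31 in the Irf1 controls, and 4.03 ± 0.46 in the Ikbkb-deleted libraries and 4.22 ± 0.26 in the Ikbkb controls (SD, n = 4 each). Every Irf1-set library but 1 had more fibroblast and endothelium marker RNA than every Ikbkb-set library, and the part of this in the ratio was not tested.

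The ratio of Irf7 to Irf3, the inducible over the constitutive activator of interferon genes, did not separate the sets. Its log2 value ran from 0.26 to 2.34 in the Ikbkb-deleted libraries, against 1.95 to 4.0 in the Ikbkb controls. In the Irf1 set it ran from 1.54 to 2.43 in the deleted libraries, against 1.91 to 2.84 in the controls. The groups overlapped in both sets, and the lowest value, Irf7 counts at 1.20 times those of Irf3, came from Ikbkb-deleted replicate 3.

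**Figure D3:**
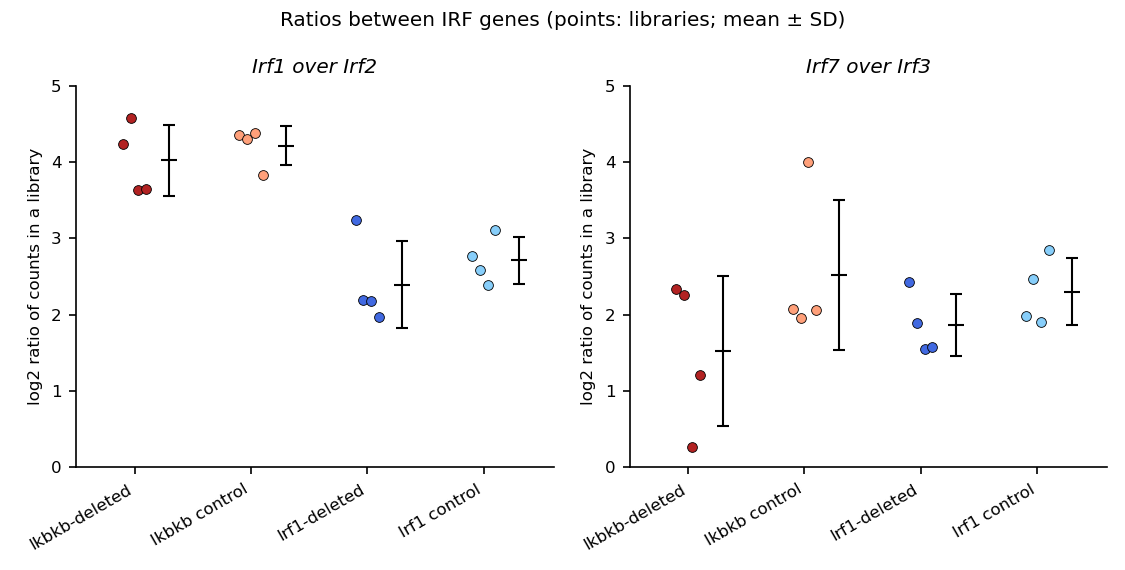
Log2 ratio of counts of Irf1 over Irf2 and of Irf7 over Irf3 in each library (points), with the mean ± SD of 4 libraries per group. For Irf1 over Irf2 the Irf1 set lies between 1.97 and 3.25 and the Ikbkb set between 3.63 and 4.58, with no overlap. The share of other gene pairs that separate the sets was not measured.

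Over all 16 libraries Irf1 followed the T and NK cell markers most closely of the members, and Irf5 the cDC1 markers. Each member was related to 4 marker sums and to each other member, 49 relations in all, as log2 values over 16 libraries. Of these, 4 had a Benjamini-Hochberg adjusted permutation p under 0.05 for both Pearson's r and Spearman's rho. All points share libraries, depth and composition.

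Irf5 against the summed cDC1 markers gave r = 0.94 and rho = 0.79, with permutation p of 1e-05, the smallest that 100000 resamples can give, and 0.00047, or 0.00049 and 0.00768 adjusted. It was 0.84 without the 2 libraries farthest on the marker axis, 0.85 in the Irf1 set and 0.99 in the Ikbkb set. Ppt1 and Naaa weigh most in this marker sum. Irf1 against the 14 T and NK cell markers gave r = 0.90 and rho = 0.81 (permutation p = 2e-05 and 0.00031, adjusted 0.00049 and 0.00768). It was 0.83 without the 2 farthest libraries, 0.81 in the Irf1 set and 0.88 in the Ikbkb set. Both relations thus held inside each set and without the extreme libraries. Within sets the T and NK cell relation was not particular to Irf1. Irf7 gave r = 0.90 in the Irf1 set and 0.85 in the Ikbkb set, though 0.56 over all libraries. Irf9 gave 0.43 and 0.89, and Irf2 0.64 and 0.83, in the same order of sets. Irf5 gave 0.74 and 0.49, Irf4 0.28 and 0.56, and Irf3 0.23 and 0.40. Irf1 against the cDC1 markers gave a weaker r of 0.62 (adjusted permutation p = 0.0505), and 0.33 without the 2 farthest libraries. Between Irf1 and Irf7 r was 0.55 over all libraries, 0.90 in the Irf1 set and 0.87 in the Ikbkb set.

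Irf7 and Irf9 varied together across libraries, with r = 0.90 and rho = 0.80 (permutation p = 5e-05 and 0.00044, adjusted 0.000817 and 0.00768). Without the 2 farthest libraries r was 0.65, and it was 0.66 in the Irf1 set, where an exact permutation p was 0.0737, and 0.98 in the Ikbkb set. Irf1 and Irf5 gave r = 0.77 and rho = 0.73 (permutation p = 0.00025 and 0.00182, adjusted 0.00306 and 0.0223), with 0.66 without the 2 farthest libraries, 0.85 in the Irf1 set and 0.71 in the Ikbkb set. Fibroblast and endothelium markers against Irf1 gave rho = -0.71 (permutation p = 0.00272, adjusted 0.0267), but within sets r was -0.32 in the Irf1 set and -0.0071 in the Ikbkb set, so that relation did not hold within sets.

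**Figure D4:**
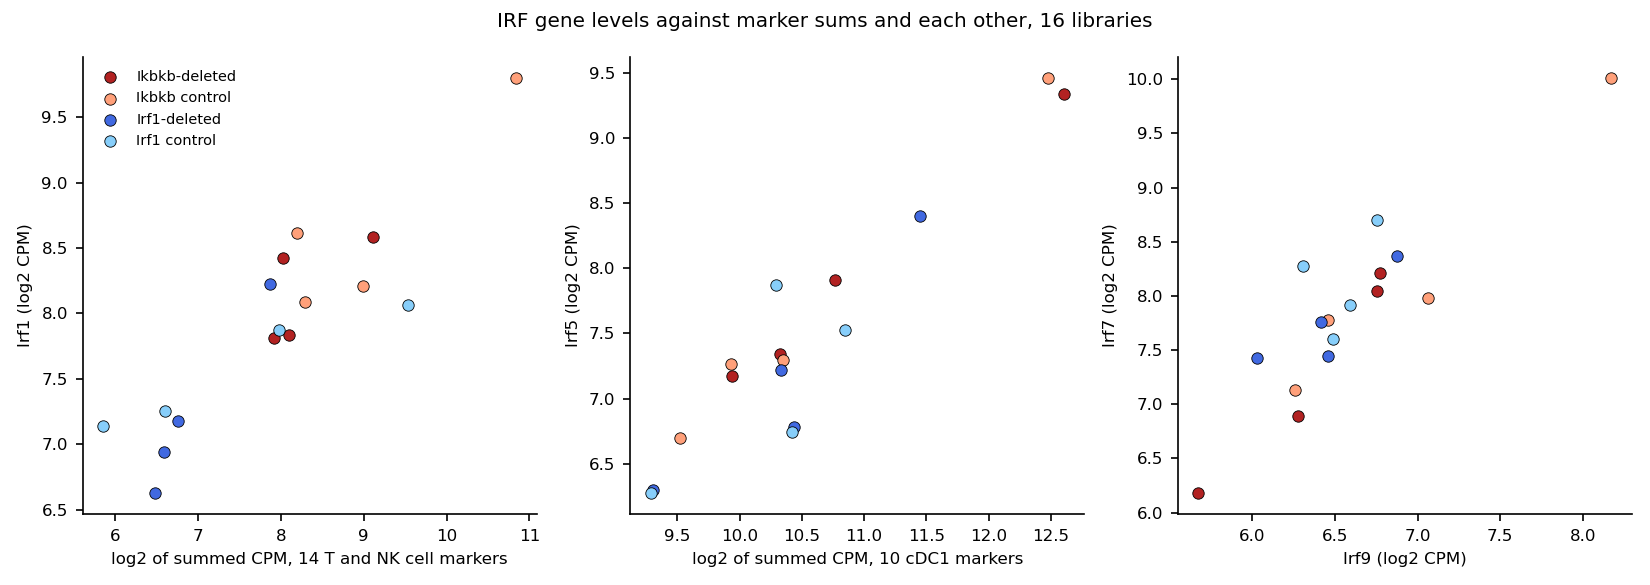
Log2 CPM of Irf1 against the log2 summed CPM of 14 T and NK cell markers, Irf5 against 10 cDC1 markers, and Irf7 against Irf9, with 1 point per library coloured by group. Points of both sets lie along each trend (r = 0.90, 0.94 and 0.90), and Ikbkb control replicate 3 is the top point in all panels.

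The genes whose pattern was most like each member were taken by Pearson's r of log2 CPM over the 16 libraries among 9454 genes whose mean log2 CPM was 3 or more. For Irf1 they were Il21r (0.96), the receptor of interleukin 21, Arl5c (0.95), the granzyme inhibitor Serpinb9 (0.95), Cd274 (0.95), which encodes PD-L1, and the nuclear receptor Nr4a3 (0.94). For Irf5 they were Selplg (0.97), the ligand of P-selectin, Sla (0.97), Rab43 (0.97), Irf8 (0.97) and the integrin Itgb2 (0.97). For Irf7 they were Dhx58 (0.94), a RIG-I-like receptor, Ifit2 (0.92), Sp100 (0.91), Usp18 (0.91) and Ifi211 (0.90), and for Irf9 Rsad2 (0.90), Oasl1 (0.90), Isg20 (0.90), Lmbrd1 (0.89) and Parp9 (0.89). For Irf2 they were Resf1 (0.92), Arhgef1 (0.91), Zfp710 (0.90), Klf13 (0.89) and Gps2 (0.89). Those of Irf3 were Usp6nl (0.85), Smarcal1, Mettl3, Tex2 and Hps4 (0.80 each), and those of Irf4 were Wdyhv1 (0.87), Cybc1 (0.85), Higd1a, Ccdc117 and Sap30 (0.80 each). Some likenesses were weak within the Irf1 set, where r was 0.10 for Hps4 and 0.42 for Mettl3 with Irf3, 0.39 for Wdyhv1 with Irf4 and 0.48 for Isg20 with Irf9. For the 5 genes named with Irf1 and the 5 with Irf5, r was at least 0.87 in each set. The median r over all candidates was between -0.02 and 0.06 for every member.

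The genes around the IRFs were counted by list, and no listed gene passed the edgeR test in either deletion. Of the genes known as targets of IRF9 and IRF7, all 24 had a log2 fold change below 0 in Ikbkb deletion. Their median was -0.81 against -0.02 over all genes. In Irf1 deletion 23 of 24 lay below 0, with a median of -0.55 against -0.02. Of all genes tested, 52.2% lay below 0 in Ikbkb deletion and 51.7% in Irf1 deletion. Genes of a list share libraries and can vary together, so such counts do not rest on independent observations. Without Ikbkb control replicate 3 the Ikbkb values were 18 of 24 and -0.28, and with replicate 1 of the Irf1-deleted label left out the Irf1 values were 24 of 24 and -0.72. List values without Irf1 control replicate 4, which had the largest T and NK cell sum of its set, are not reported here or below. In Irf1 deletion, Irf7 itself was -0.63 without that deleted replicate 1 and -0.15 without Irf1 control replicate 4. Irf9 was -0.23 and 0.0094 in the same order. Ifit3, which restrains viral RNA translation with its partner Ifit1, averaged 35.2 ± 19.2 CPM in the Ikbkb-deleted libraries and 103 ± 67.3 CPM in the Ikbkb controls, a log2 value of -1.55 with an SE of 0.46 (edgeR adjusted p = 0.966). Mx2 averaged 3.56 ± 2.26 CPM in the Irf1-deleted libraries and 11.3 ± 3.50 CPM in the Irf1 controls, a log2 value of -1.67 with an SE of 0.87 (edgeR adjusted p = 1).

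Of 20 tested genes known as IRF1 targets, 16 had a value below 0 in Ikbkb deletion (median -0.48) and 17 in Irf1 deletion (median -0.24). Without Ikbkb control replicate 3 the Ikbkb count became 9 with a median of 0.07, and with replicate 1 of the Irf1-deleted label left out the Irf1 count became 18 with a median of -0.76. Il15, a cytokine for NK and memory T cells, averaged 20.2 ± 5.21 CPM in the Ikbkb-deleted libraries and 32.6 ± 9.65 CPM in the Ikbkb controls (log2 fold change -0.69, SE 0.32; edgeR adjusted p = 1). Casp1, the inflammasome protease, averaged 41.0 ± 8.26 CPM in the Irf1-deleted libraries and 63.6 ± 16.9 CPM in the Irf1 controls (log2 fold change -0.63, SE 0.31; edgeR adjusted p = 1). Cxcl10, a chemokine for T cells, averaged 99.3 ± 46.0 CPM in the Irf1-deleted libraries and 188 ± 125 CPM in the Irf1 controls (log2 fold change -0.92, SE 0.54).

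Upstream of the IRFs, 13 of 19 sensors, adaptors and kinases had a value below 0 in Ikbkb deletion (median -0.15) and 12 of 19 in Irf1 deletion (median -0.06). Ddx58 had the smallest p of the list in both deletions. It averaged 24.4 ± 3.87 CPM in the Ikbkb-deleted libraries and 44.2 ± 12.8 CPM in the Ikbkb controls, a log2 value of -0.85 with an SE of 0.24 (edgeR adjusted p = 0.945). It averaged 50.1 ± 13.5 CPM in the Irf1-deleted libraries and 83.0 ± 12.1 CPM in the Irf1 controls, a log2 value of -0.73 with an SE of 0.23 (edgeR adjusted p = 1). Without Ikbkb control replicate 3 the list had 8 of 19 below 0 in Ikbkb deletion (median 0.03).

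Of 14 tested interferon, receptor and JAK-STAT genes, 13 had a value below 0 in Ikbkb deletion (median -0.24, and 0.11 without Ikbkb control replicate 3) and 11 in Irf1 deletion (median -0.14). Ifng, made by T and NK cells, averaged 0.195 ± 0.389 CPM in the Irf1-deleted libraries and 1.80 ± 1.75 CPM in their controls. Within the Ikbkb set it averaged 2.07 ± 1.59 CPM after deletion and 8.49 ± 10.4 CPM in controls. Of 13 partners and regulators 8 were below 0 in Ikbkb deletion (median -0.11) and 6 in Irf1 deletion (median 0.10), and 3 in Ikbkb deletion without Ikbkb control replicate 3 (median 0.21). Of 9 tested IRF5 or IRF4 targets, 5 were below 0 in Ikbkb deletion (median -0.12, and 0.42 without Ikbkb control replicate 3) and 6 in Irf1 deletion (median -0.23). In that list Prdm1, which encodes the repressor BLIMP-1, averaged 11 ± 6.40 CPM in the Ikbkb-deleted libraries and 24.8 ± 8.68 CPM in the Ikbkb controls (log2 fold change -1.18, SE 0.38; edgeR adjusted p = 0.973). Leaving out replicate 1 of the Irf1-deleted label gave Irf1 deletion medians of -0.58 for this list, -0.18 for the sensors, -0.20 for the interferon and JAK-STAT genes and 0.02 for the partners. Ifnb1, Ifna4, Il12a and Il23a were too low to be tested.

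**Figure D5:**
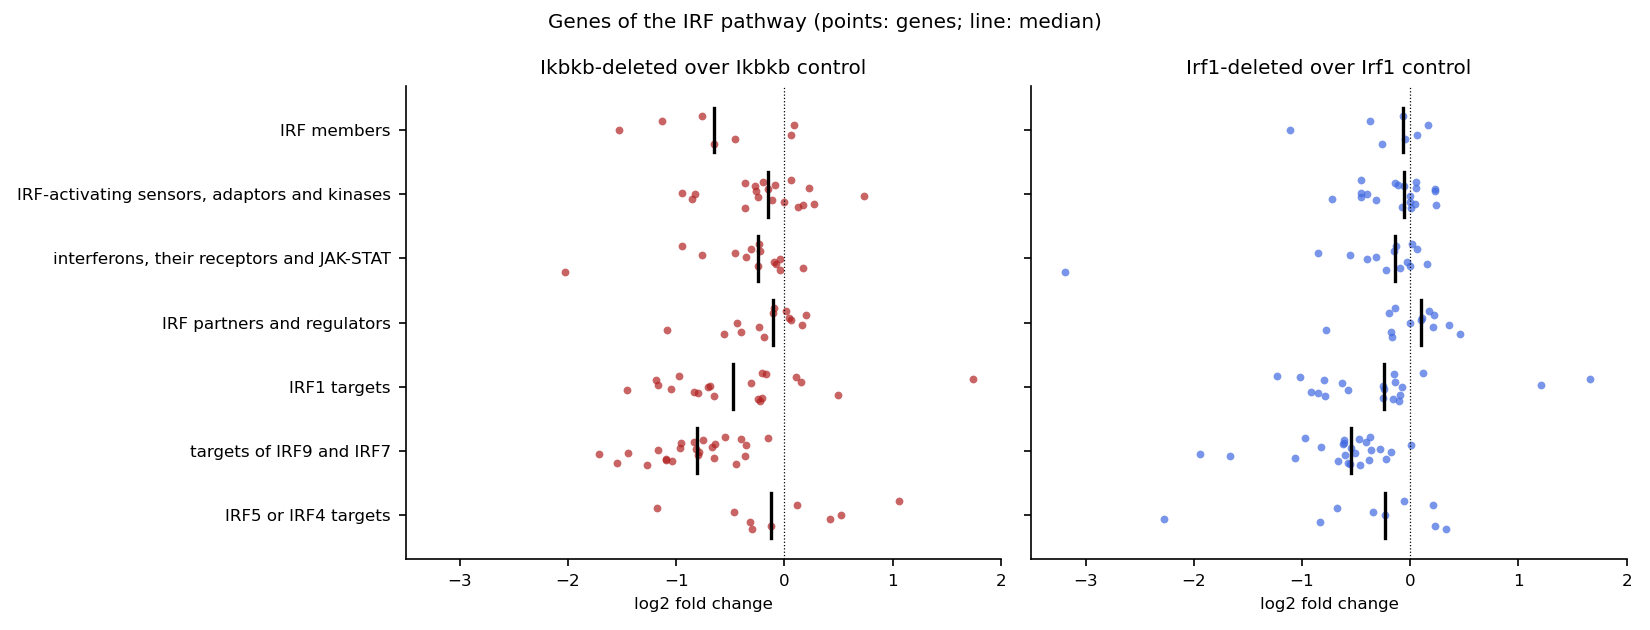
Log2 fold changes of the 7 IRF genes and of the tested genes of 6 lists (points; the black line is the median), for Ikbkb-deleted over Ikbkb control and Irf1-deleted over Irf1 control. Of 24 targets of IRF9 and IRF7, 24 lie below 0 for Ikbkb deletion (median -0.81) and 23 for Irf1 deletion (median -0.55). Of all genes tested, 52.2% and 51.7% lie below 0 in the same order. No gene shown passed the edgeR test.

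Macrophage and monocyte markers had the same sign as these target lists. In Ikbkb deletion 11 of 12 had a value below 0 (median -0.53), and in Irf1 deletion 12 of 12 (median -0.50), with none called. Their sum ran from 957 to 5833 CPM in the Ikbkb-deleted libraries, against 3552 to 5113 CPM in the Ikbkb controls, and from 1079 to 4145 CPM in the Irf1-deleted libraries, against 839.5 to 9443 CPM in the Irf1 controls. With their score as a covariate the median of the IRF9 and IRF7 targets was -0.59 in Ikbkb deletion and -0.41 in Irf1 deletion, and with the T and NK cell score it was -0.40 and -0.25 in the same order. The median of the IRF1 targets was 0.12 in Ikbkb deletion and 0.07 in Irf1 deletion with the T and NK cell score, and -0.16 and -0.11 with the macrophage and monocyte score. Counts may be affected where exons overlap those of neighbours, since the library kit does not mark strand. Whether reads in the overlaps were counted or set aside was not tested. Exons of Irf5 overlap those of Tnpo3 by 411 bases, 14.1% of the Irf5 exons, and Tnpo3 ran from 59.4 to 123 CPM. Overlaps of Irf1 with Gm17334, Irf3 with Bcl2l12, Irf7 with Phrf1 and Irf9 with Rnf31 covered at most 3.4% of the member's exons.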

How the data were processed

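RNA was measured in 16 libraries in 4 groups of 4 by genotype label. Per the labels' protocols, SMART-Seq v4 turned 1000 pg of RNA into cDNA (12 cycles of PCR), and Nextera XT made the libraries (12 cycles). The authors deposited raw gene counts, keyed by Ensembl ID and not normalized. The submitters' processing notes name HTSeq 0.6.1p1, STAR 2.5.3a, cutadapt 1.10 and bcl2fastq 2.17.1.14, and the build mm10. The annotation release and strand setting are not given in the sources used here. Of 32697 genes, 32684 matched GENCODE M21, and 13 did not.

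Counts were analysed with edgeR 4.0.16 in R 4.3.3. filterByExpr (minimum count 10, total 15) kept 16040 genes, all 7 members among them, and libraries were scaled by TMM. A quasi-likelihood fit over all 16 libraries, with 1 mean for each group, gave the contrasts, adjusted by Benjamini-Hochberg over all genes tested. Log2 CPM used a prior count of 2. Correlations used 100000 permutations, two-sided. Replicate numbers follow record order and pair no libraries. PCR reads are not independent molecules, so limits from counts cover counting error only. No replicates were duplicates: the smallest chi-square, divided by the number of genes, was 49.2 between libraries of a group. Total counts per library set the precision and were 16478671 to 27433818. The fit was tested on simulated data.

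The members and lists were chosen with earlier results of these data known. Named genes were the 7 members, both targeted genes, the 5 genes most like each member (predicted genes and pseudogenes left out) and up to 3 genes per list and deletion with the smallest p. Alternatives were RLE and upper-quartile scaling, no filter, a stricter filter (5 CPM in at least 4 libraries), DESeq2 1.42.0, voom from limma 3.58.1 with quality weights, each set of 8 alone, 4 marker scores as covariates, each library left out in turn, another gene length and, chosen after seeing the data, leaving out both libraries with the most cDC1 RNA, and list medians under every setting. Promoters are RefSeq's for GRCm38.p6. Some items named by these rules are not reported here.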

Additional observations from a re-analysis of the deposited data

Results flagged for a closer look

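Of 36 groups of 4 libraries checked over the 7 members and both ratios, 5 held a library whose gap to its nearest neighbour exceeded Dixon's 95% critical value, taken as a share of the group's range. Chance would flag about 1 in 20 groups of independent, normally distributed values. These groups share libraries and most hold untransformed CPM, so that rate gives no expected number here. Ikbkb control replicate 3 stood above the other Ikbkb controls for Irf5 (705 CPM), for Irf7 (1034 CPM) and for the log2 ratio of Irf7 to Irf3 (4.0). Ikbkb-deleted replicate 2 was the highest of its group for Irf4, at 7.66 CPM. Ikbkb control replicate 4 had the lowest log2 ratio of Irf1 to Irf2 among the Ikbkb controls, at 3.83, which is still above every library of the Irf1 set.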

How the results depend on the processing

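Of 590 alternative values of the members' log2 fold changes, 522 kept their direction and their side of the threshold, 63 changed sign and 5 newly passed the threshold. None of the values that changed sign passed the test under either setting. The cause of these changes was not tested. No paired analysis was possible because the labels give the groups no shared replicate numbers.

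DESeq2 called 38 genes in Ikbkb deletion, 6 in Irf1 deletion, 12 for their difference and 3171 between the controls. Between the controls limma voom called 4130 genes, a fit with no filter 1199 and the fit with a fibroblast and endothelium score 0. Leaving out a library gave 0 to 1 called genes in Ikbkb deletion (1 without Ikbkb-deleted replicate 2), 0 to 1 for the difference (1 without Irf1 control replicate 3) and 782 to 2404 between the controls, against 2018 with all libraries. The low counts were 782 without Irf1 control replicate 3, 850 without Irf1 control replicate 2, 1067 without Ikbkb control replicate 2, 1180 without Irf1 control replicate 1 and 1342 without Ikbkb control replicate 1. Members called between the controls numbered 1 with a filter of 5 CPM, with voom and with a cDC1 score, in each case Irf1. DESeq2 called 2, Irf1 and Irf4, of which Irf4 passed the filter on low counts only through the Ikbkb set. Beside these stand the 4130 genes called by voom and the 3171 by DESeq2, of 16040 tested. The calls by voom and DESeq2 are thus not particular to the IRF genes. The gene totals with the filter and with the cDC1 score are not reported here.

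Values that changed sign in Ikbkb deletion were Irf4 (1.95 by voom, 0.36 without both libraries with the most cDC1 RNA) and Irf5 (-0.23 with a fibroblast score). In Irf1 deletion they were Irf2 (0.081 by voom, 0.10 with a T and NK cell score), Irf5 (-0.044 with a cDC1 score) and Irf9 (0.027 with a T and NK cell score). For the difference, without both cDC1-rich libraries Irf1 was 0.052, Irf2 0.014, Irf4 1.44 and Irf5 0.22. Irf3 was -0.0086 with RLE scaling, -0.0036 unfiltered and -0.0080 by DESeq2. Irf4 was 3.11 by voom, 1.22 with a cDC1 score and 0.67 with a T and NK cell score, and Irf5 was 0.26, 0.092 and 0.47 under the same settings. Between the controls Irf5 was 0.22 with a T and NK cell score, 0.72 with a fibroblast score and 0.13 without both cDC1-rich libraries. Irf7 was 0.13 by voom, 0.013 with a cDC1 score, 0.60 with a T and NK cell score, 0.039 with a fibroblast score and 0.51 without both libraries.

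Leaving out each library in turn gave, in Ikbkb deletion, -0.12 to 0.16 for Irf3, -1.95 to 0.22 for Irf4 and -0.63 to 1.1 for Irf5. In Irf1 deletion it gave -0.19 to 0.10 for Irf2, -0.42 to 0.46 for Irf5 and -0.23 to 0.055 for Irf9. For the difference it gave -0.60 to 0.13 for Irf1, -0.61 to 0.023 for Irf2, -0.19 to 0.091 for Irf3, -1.04 to 1.34 for Irf4, -0.80 to 0.92 for Irf5 and -1.09 to 0.23 for Irf7. Between the controls it gave -0.11 to 0.17 for Irf3, -1.18 to 0.13 for Irf5 and -0.80 to 0.51 for Irf7. The correlation of Irf9 with Irf7 was 0.66 in the Irf1 set alone, with an exact permutation p of 0.0737. Irf4 could not be tested with the filter of 5 CPM or in the Irf1 set alone.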
